A study of Mirounga angustirostris with 8 samples.

Results

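Aldehyde dehydrogenases are enzymes that oxidise reactive aldehydes to carboxylic acids, with NAD or NADP as the electron acceptor. In skeletal muscle they serve as steps in the breakdown of amino acids, in the synthesis of carnitine, in folate chemistry and in the removal of aldehydes that arise from lipids. The 10 family members described here are those with the symbols ALDH1A1, ALDH1L1, ALDH2, ALDH3A2, ALDH4A1, ALDH5A1, ALDH6A1, ALDH7A1, ALDH9A1 and ALDH18A1. All 10 were found by symbol among the 24338 entries of the count table that name a gene, and all 10 passed the filter on low counts. The family was selected on the measured fall of ALDH9A1 between the sampling times, so the change of ALDH9A1 is a description only and its p-value is not given.

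The RNA came from the longissimus dorsi, a back muscle, of adult female northern elephant seals (NES) on land for the annual molt, when they fast and move little. The 4 early-molt libraries (pre-molt in the study) came from biopsies taken at most 5 days after arrival, from seals 5572, 5842, 6762 and C497. The 4 late-molt libraries (post-molt) came from seals 4448, 5572, 9678 and X410, so 5572 is the one animal with a library (5572A and 5572B) at both times. In the study, post-molt biopsies followed the initial biopsy by a mean of 34 days. That mean is not given for these 4 seals alone. No agent or genetic change separates the groups, all the seals were sedated for sampling, and time on land, fasting, inactivity and molt cannot be told apart. The question was which transcripts differ between the end and the beginning of this period. Levels are given as CPM, the reads of a gene per 1000000 reads of its library, scaled with TMM factors that correct for differences in library composition, and fold changes are late-molt over early-molt on the log2 scale with the standard error (SE) of the edgeR fit.

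Totals per library were 37905311 to 56150332 counts in early molt and 30774895 to 61229829 in late molt. Each member had at least 330 counts in every library (ALDH18A1 in 9678B). Muscle fiber markers summed to 198380 to 315904 CPM in early molt and 183109 to 265186 CPM in late molt, and the 3 skin markers in the table to at most 2.19 CPM. Of the 9 fiber markers tested, 8 had a negative log2 fold change (median -0.46), as did 53.5% of all genes, and edgeR called 0. DESeq2 called 1 lower and 1 higher (3.16% and 3.35% of all genes with a DESeq2 adjusted p). At an unadjusted edgeR p below 0.05, 2 were lower and 1 higher (6.22% and 5.20% of all genes). ACTA1 was at 61066 to 108249 CPM in early molt and 35014 to 58123 CPM in late molt. MB went the other way, at 56725 to 97087 and 89820.5 to 132362 CPM. TTN, the very long transcript of titin, was at 1152 CPM in 5572A and 16475 to 28797 CPM in the other early-molt libraries, and at 25277 CPM in 9678B and 1630 to 4194 CPM in the other late-molt libraries. NEB, of nebulin and also long, was likewise lowest of its group in 5572A and highest of its group in 9678B. Library 5572A thus lay with most late-molt libraries in TTN, and 9678B with most early-molt ones. The part of RNA quality in the results was not tested.

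The summed fibroblast and fibro-adipogenic markers were at 464 to 1521 CPM in early molt, highest in 5842A, and at 185 to 487 CPM in late molt. All 10 had a negative log2 fold change (median -1.32), as did 53.5% of all genes tested. Of these markers edgeR called 0, DESeq2 called 3 lower (3.16% of all genes with a DESeq2 adjusted p), and 6 were lower at an unadjusted edgeR p below 0.05 (6.22% of all genes). The sums overlapped for this and the other lists: adipocyte markers were at 766 to 1002 CPM in early molt and 468 to 949 CPM in late molt, and endothelial markers at 426 to 567 and 389 to 451 CPM. Most of the adipocyte sum was LPL, at 677 to 731 CPM in early molt and 379 to 811 CPM in late molt. Negative log2 fold changes were seen in 6 of 8 adipocyte markers tested (median -0.65) and 5 of 8 endothelial ones (median -0.12). In each of these 2 lists edgeR called 0, DESeq2 called 1 lower, and 1 was lower at an unadjusted edgeR p below 0.05. In such bulk samples fewer cells of a type and less RNA per cell cannot be told apart.

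ALDH9A1 codes for a cytosolic enzyme that oxidises trimethylaminobutyraldehyde to butyrobetaine, the precursor of carnitine, and also handles aldehydes derived from polyamines. Its level was 46.5 CPM in 5572A, 61.6 in 5842A, 47.0 in 6762A and 49.4 in C497A. In late molt it was 25.5 CPM in 4448B, 18.9 in 5572B, 24.0 in 9678B and 15.6 in X410B. The groups did not overlap, with every late-molt library under every early-molt one, and the highest value was in 5842A, which also had the highest summed fibroblast and adipocyte markers. The part of those cells in the ALDH9A1 values was not tested. The means were 51.1 ± 7.07 and 21.0 ± 4.55 CPM (SD, n = 4 each), a log2 fold change of -1.28 ± 0.21 (SE), or 0.411 times the early-molt level. Leaving out any 1 library gave -1.38 to -1.16, and leaving out both libraries of seal 5572 gave -1.28. In 5572A, with little TTN, it was within 1 CPM of 6762A, and in 9678B, with much TTN, it was inside the range of the other late-molt libraries. The part of RNA quality in the ALDH9A1 values was not tested.

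ALDH1L1 was the next lowest by fold change. The enzyme is the cytosolic formyltetrahydrofolate dehydrogenase, which releases the one-carbon unit of folate as carbon dioxide while reducing NADP. Its level was 705 CPM in 5572A, 577 in 5842A, 573 in 6762A and 382 in C497A. The late-molt values were 288 CPM in 4448B, 226 in 5572B, 276 in 9678B and 281 in X410B. The late-molt libraries lay close together and all were below C497A, the lowest of the more widely spread early-molt group. The means were 559 ± 133 and 268 ± 28.3 CPM (SD, n = 4 each), a log2 fold change of -1.06 ± 0.22 that did not pass in edgeR (adjusted p = 0.0546). DESeq2 called the gene lower (adjusted p = 7.44e-05), as did limma-voom (0.0353). Leaving out 1 library moved the edgeR adjusted p from 0.0387 (without C497A) to 0.161 and the log2 fold change from -1.20 to -0.93.

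ALDH4A1 and ALDH18A1 act on the same intermediate, pyrroline-5-carboxylate, in opposite pathways. ALDH4A1 is the mitochondrial dehydrogenase that turns it into glutamate at the end of proline breakdown, and ALDH18A1 makes it from glutamate at the start of proline synthesis. ALDH4A1 was at 207 CPM in 5572A, 276 in 5842A, 131 in 6762A and 110.4 in C497A. Late in the molt it was at 90.2 CPM in 4448B, 109.8 in 5572B, 84.5 in 9678B and 97.7 in X410B. The groups did not overlap, but C497A and 5572B were almost level, and the early-molt mean rested largely on 5842A and 5572A. Its log2 fold change was -0.92 ± 0.27 (181 ± 75.8 to 95.5 ± 10.96 CPM, SD, n = 4 each; edgeR adjusted p = 0.163), and DESeq2 called the gene lower (adjusted p = 0.0312). Without 5842A, the library with the highest summed fibroblast markers, it was -0.62. The part of those cells in the ALDH4A1 values was not tested.

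ALDH18A1 ranged from 15.6 to 24.2 CPM in early molt and from 10.4 to 17.8 CPM in late molt. Libraries 5572B and 9678B were below every early-molt library, while 4448B and X410B lay within the early-molt range. The log2 fold change was -0.48 ± 0.26 (edgeR adjusted p = 0.555), and its 95% interval ran from -1.04 to 0.09. Both proline enzymes thus had negative fold changes, and neither passed in edgeR.

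The members ALDH7A1, ALDH6A1 and ALDH5A1, take part in the breakdown of amino acids. ALDH7A1 (antiquitin) oxidises aminoadipic semialdehyde from lysine. It was very even in early molt, at 73.6 CPM in 5572A, 76.3 in 5842A, 78.6 in 6762A and 79.0 in C497A. Late-molt levels were 61.9 CPM in 4448B, 65.0 in 5572B, 43.1 in 9678B and 62.3 in X410B. All late-molt libraries were below the early-molt ones, and 9678B stood apart from the other 3. The fold change on the log2 scale was -0.40 ± 0.18 (edgeR adjusted p = 0.424, unadjusted 0.0466), and -0.28 without 9678B.

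ALDH6A1 oxidises methylmalonate semialdehyde from valine and thymine to propionyl-CoA. Its level was 216 to 346 CPM in early molt and 204 to 290 CPM in late molt, with most of the late-molt values inside the early-molt range. The log2 fold change was -0.18 ± 0.20 (edgeR adjusted p = 0.835, 95% interval -0.62 to 0.25), or -0.27 without 5842A and -0.07 without 6762A. ALDH5A1, the succinic semialdehyde dehydrogenase of GABA breakdown, was at 48.3 to 69.4 CPM in early molt and at 52.3 to 56.9 CPM in late molt. Its late-molt values all lay within the early-molt range and varied less, with a coefficient of variation of 3.90% against 15.6%; the difference in spread was not tested. The log2 fold change was -0.06 ± 0.18 (adjusted p = 0.951, 95% interval -0.44 to 0.33), so a change by a factor of 2 lies outside the interval for both genes.

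**Figure D1:**
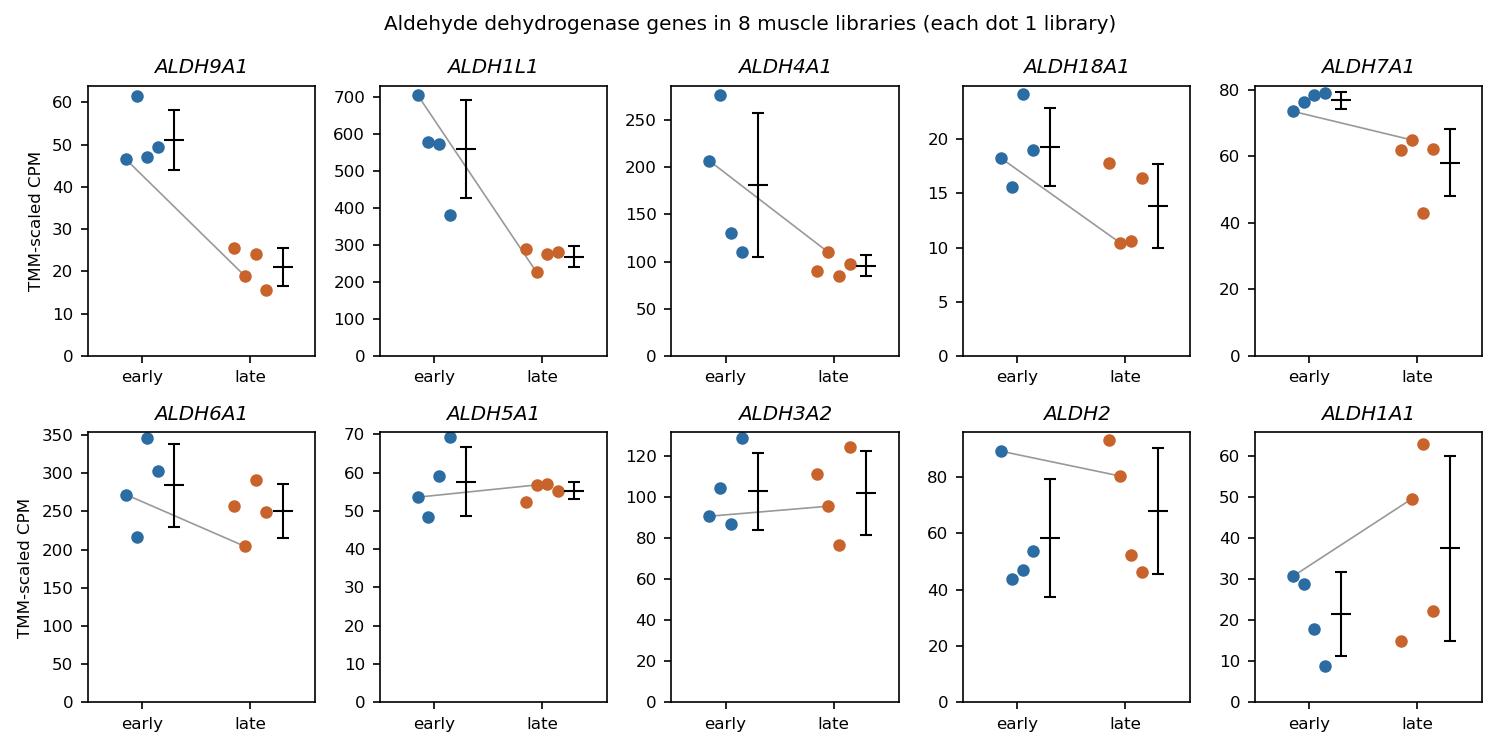
Level of the 10 aldehyde dehydrogenase genes in TMM-scaled CPM (vertical axes, each from 0) in 4 early-molt (blue) and 4 late-molt (orange) libraries; each dot is 1 library, black marks are the mean ± SD, and gray lines join the libraries of seal 5572. ALDH9A1, ALDH1L1, ALDH4A1 and ALDH7A1 have no late-molt dot above an early-molt one, while the dots of the other 6 genes overlap.

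The members best known for the removal of lipid-derived aldehydes did not pass in edgeR. ALDH3A2, the fatty aldehyde dehydrogenase of the endoplasmic reticulum, was at 87.0 to 128.6 CPM in early molt and 76.7 to 124.2 CPM in late molt. Its log2 fold change was -0.01 ± 0.21 (edgeR adjusted p = 0.994, 95% interval -0.46 to 0.44). ALDH2, the mitochondrial enzyme that oxidises acetaldehyde and lipid peroxidation products, was at 89.0 CPM in 5572A and 43.8 to 53.6 CPM in the other early-molt libraries. In late molt it was at 92.9 CPM in 4448B and 80.2 in 5572B, against 52.3 in 9678B and 46.3 in X410B. The highest values of both groups were similar, and both libraries of seal 5572 were among the 3 highest of the 8. The log2 fold change was 0.22 ± 0.28 (adjusted p = 0.860, 95% interval -0.39 to 0.84). It was 0.03 without 4448B and 0.50 without 5572A.

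ALDH1A1, a cytosolic enzyme that makes retinoic acid from retinal, had the most positive log2 fold change of the 10 members and the largest SE. It was at 30.7 CPM in 5572A, 28.8 in 5842A, 17.8 in 6762A and 8.95 in C497A. Late-molt levels were 15.04 CPM in 4448B, 49.6 in 5572B, 63.1 in 9678B and 22.4 in X410B. The groups overlapped, since 4448B was below 3 of the early-molt libraries and X410B below 5572A and 5842A. Its difference of 0.80 ± 0.46 on the log2 scale did not pass (edgeR adjusted p = 0.575, 95% interval -0.20 to 1.79). It was 0.43 without 9678B and 1.07 without 4448B.

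Of the 9 members other than ALDH9A1, edgeR called 0 at an adjusted p under 0.05, where it called 0.349% of the 14312 genes tested, 0.133% lower and 0.217% higher. At an unadjusted p under 0.05 there were 3 lower (ALDH1L1, ALDH4A1 and ALDH7A1) and 0 higher, against 6.22% and 5.20% of all genes. The groups did not overlap in the same 3 genes, all lower in late molt, against 5.11% of all genes lower and 4.05% higher. The log2 fold change was below 0 in 7 of the 9 and in 53.5% of all genes. Since the same contrast chose the family, nothing is read from these counts. DESeq2 called 2 of the 9 lower (ALDH1L1 and ALDH4A1), against 3.16% of the 9991 genes to which it gave an adjusted p. The median log2 fold change was -0.18 over the 9 other members and -0.04 over all genes tested.

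**Figure D2:**
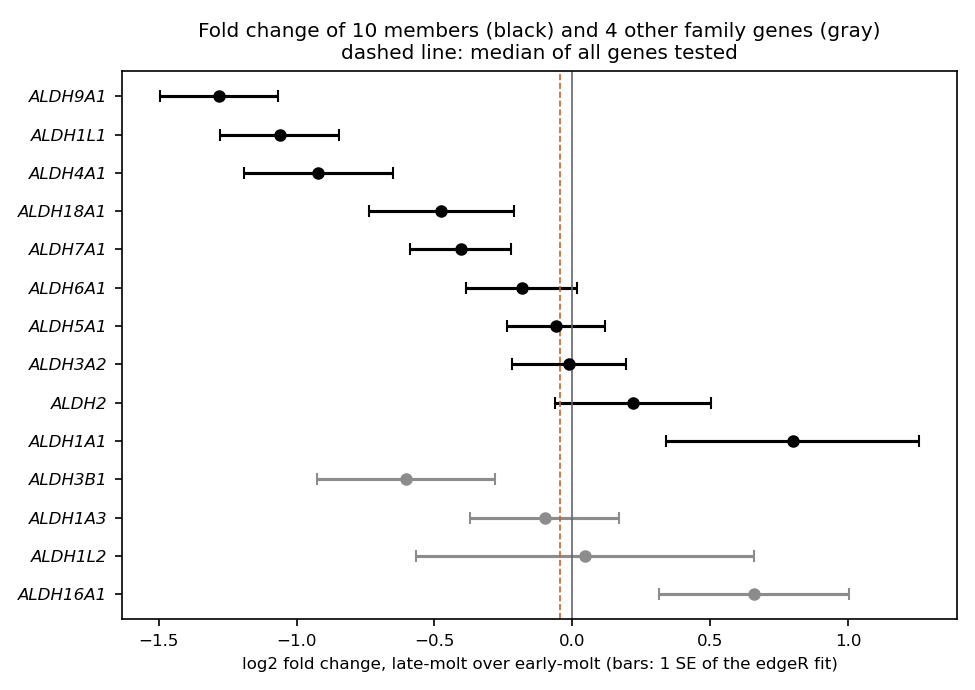
Log2 fold change, late-molt over early-molt, of the 10 members (black) and of 4 other family genes with more than 1 CPM in early molt (gray); bars are 1 SE of the edgeR fit, and the dashed line is the median of all genes tested (-0.04). Values run from -1.28 for ALDH9A1 to 0.80 for ALDH1A1.

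Library by library, no seal was high or low in every member. Early-molt libraries held the highest value of 8 of the 10 members, 3 of them in C497A. Late-molt libraries held the lowest value of 7, with 3 in 5572B and 3 in 9678B, while C497A also held the lowest value of ALDH1A1 and 5842A those of ALDH2 and ALDH5A1. Averaged over the 9 members other than ALDH9A1, the deviation from each gene's mean log2 CPM was -0.05 to 0.29 in early-molt and -0.15 to -0.07 in late-molt libraries. C497A (-0.05) thus lay near the late-molt libraries, of which 5572B was at -0.07.

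**Figure D3:**
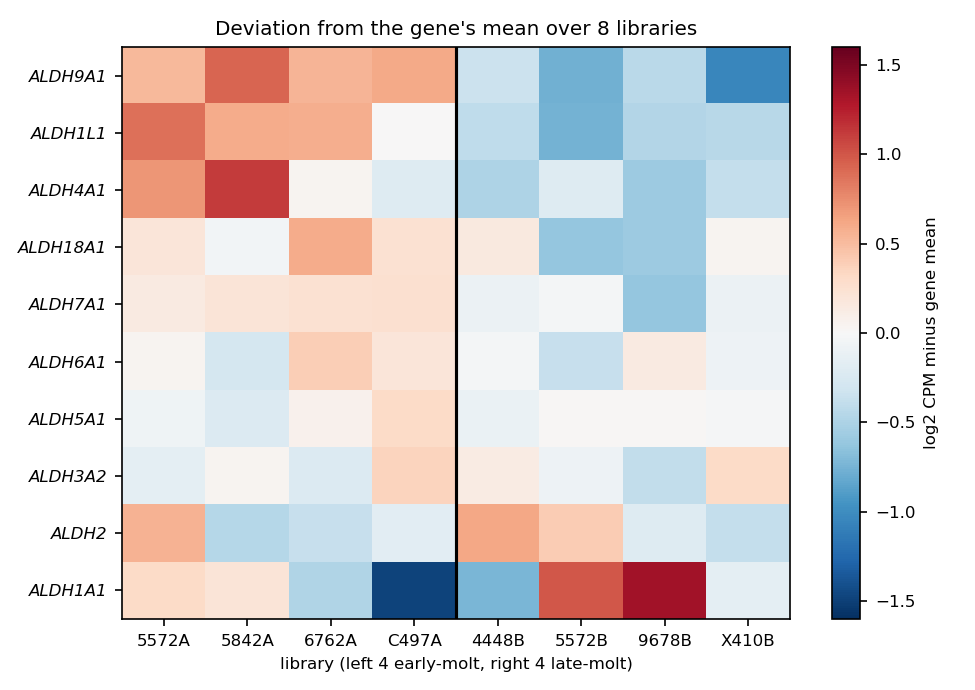
Log2 CPM of each member minus its mean over the 8 libraries (color scale), for the early-molt libraries left and the late-molt libraries right of the line. The upper rows (ALDH9A1 and ALDH1L1) are lighter or red on the left and blue on the right, whereas ALDH2 and ALDH1A1 differ more between libraries of one group than between the groups.

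Within seal 5572, 7 members were lower and 3 higher late in the molt. The differences in log2 CPM were -1.64 for ALDH1L1 (704.6 to 226.1 CPM), -1.29 for ALDH9A1 and -0.91 for ALDH4A1. They were -0.80 for ALDH18A1, -0.41 for ALDH6A1, -0.18 for ALDH7A1 and -0.15 for ALDH2. Small positive values were seen for ALDH3A2 (0.08) and ALDH5A1 (0.08), and 0.69 for ALDH1A1. Over all genes tested the median difference in this seal was 0.00349. With 1 library per time there is no test, and both libraries are also part of the groups.

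The genes whose log2 CPM followed ALDH9A1 most closely over the 8 libraries were ZNF512, a zinc-finger protein (Pearson r = 0.977), METTL3, the RNA adenosine methyltransferase (0.960), and SELENOM, a selenoprotein of the endoplasmic reticulum (0.958). They were followed by TMEM65, of the mitochondrial inner membrane (0.956), and QARS, the glutaminyl-tRNA synthetase (0.954). These 8 points include the difference between the groups, which those 5 genes share in sign, with log2 fold changes of -1.86 (TMEM65) to -0.50 (METTL3). With the group means subtracted, 5 other genes came first, CHST3 (r = 0.980), LZTS1 (0.954), PAPSS2 (0.948), YBEY (0.941) and the clock repressor CRY2 (0.940). The first 3 had low levels, with early-molt and late-molt means of 0.585 and 1.46 CPM (CHST3), 1.89 and 1.25 (LZTS1), and 1.64 and 1.63 (PAPSS2). Both sets hold the highest r of a search over all tested genes with a symbol. A search of that size yields high r on 8 libraries by itself, so no link to ALDH9A1 is read from them. Among the members, r with ALDH9A1 over the 8 libraries was 0.860 for ALDH1L1 and 0.733 for ALDH4A1. With group means subtracted these were 0.07 and 0.18, and the 9 other members ranged from -0.40 (ALDH7A1) to 0.18.

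Of 9 further family genes looked for by symbol, 8 were in the table and 5 were tested; the 8119 entries with LOC identifiers in place of a symbol were not matched to the family. ALDH16A1, a family protein thought to lack catalytic activity, ranged from 20.8 to 50.1 CPM in early molt and from 28.6 to 83.5 CPM in late molt (log2 fold change 0.66 ± 0.34, edgeR adjusted p = 0.527). ALDH3B1, which oxidises lipid-derived aldehydes, ranged from 7.00 to 14.7 CPM and from 5.58 to 8.01 CPM (-0.60 ± 0.32, adjusted p = 0.541). Both overlapped between the groups. ALDH1A3, also a retinal dehydrogenase, was at 15.5 ± 4.37 and 14.4 ± 2.63 CPM (SD, n = 4 each; -0.10 ± 0.27, adjusted p = 0.948). ALDH1L2, the mitochondrial counterpart of ALDH1L1, was at 1.31 to 4.84 and 1.53 to 4.63 CPM (0.05 ± 0.61, adjusted p = 0.991, 95% interval -1.28 to 1.37). ALDH1A2 had 0 to 43 counts per library (-0.58 ± 1.99, adjusted p = 0.957). ALDH1B1, ALDH3A1 and ALDH8A1 had at most 21, 11 and 33 counts in a library and were not tested. Thus 0 of the 5 tested genes passed, 3 with negative and 2 with positive values.

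Around ALDH9A1, 9 genes of carnitine synthesis and transfer were tested and 0 passed in either direction, with a median log2 fold change of 0.03. BBOX1, which makes carnitine from the butyrobetaine that ALDH9A1 supplies, ranged from 3.62 to 16.2 CPM in early molt and from 3.14 to 14.6 CPM in late molt (log2 fold change -0.44 ± 0.52, edgeR adjusted p = 0.847). CPT1A, a carnitine palmitoyltransferase that admits fatty acids to mitochondria, was at 49.2 ± 12.5 and 69.9 ± 19.1 CPM (SD, n = 4 each; 0.51 ± 0.25, adjusted p = 0.468). Both overlapped widely. Of 10 genes of polyamine and GABA metabolism, 0 passed (median -0.02). OAZ1, the antizyme that restrains polyamine synthesis, was at 416 to 551 CPM in early molt and 766 to 1023 CPM in late molt without overlap (0.78 ± 0.19, edgeR adjusted p = 0.087, DESeq2 adjusted p = 2.01e-04). AMD1, the decarboxylase that supplies aminopropyl groups, gave 0.52 ± 0.27 (adjusted p = 0.530), with C497A (41.8 CPM) above every late-molt library.

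Beside ALDH1L1, 14 folate one-carbon genes were tested and 0 passed (median -0.24, 10 negative). MTHFS, which returns formyl folate to the active pool, was at 13.3 to 17.3 CPM in early molt and 2.16 to 9.22 CPM in late molt (-1.52 ± 0.45, edgeR adjusted p = 0.174, DESeq2 adjusted p = 0.0297). Its groups did not overlap. The mitochondrial formate-producing MTHFD1L was at 14.9 to 25.3 CPM and 6.55 to 21.5 CPM (-0.83 ± 0.36, adjusted p = 0.385), with 4448B within the early-molt range.

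Of 10 genes of proline and glutamate metabolism, 0 passed in edgeR (median 0.10). PRODH, which begins proline breakdown and so feeds ALDH4A1, had the opposite sign to ALDH4A1. It was at 28.5 CPM in 5572A and 14.4 to 16.2 CPM in the other early-molt libraries, and at 78.3 in 4448B, 45.7 in 5572B, 47.4 in 9678B and 17.0 in X410B. The log2 difference was 1.34 ± 0.39 (edgeR adjusted p = 0.158, DESeq2 adjusted p = 0.0226), and X410B lay within the early-molt range. GLUD1, which releases ammonia from glutamate, was at 81.1 ± 22.1 and 53.1 ± 8.53 CPM (SD, n = 4 each; -0.61 ± 0.23, edgeR adjusted p = 0.299).

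Valine and branched-chain breakdown, the route of ALDH6A1, had 16 genes tested and 0 passing in edgeR (median -0.07), and 4 were lower at an unadjusted p under 0.05, where 6.22% of all genes were. HIBADH, which makes the semialdehyde that ALDH6A1 oxidises, was at 195 to 305 CPM in early molt and 102 to 163 CPM in late molt (-0.92 ± 0.23, edgeR adjusted p = 0.0923, DESeq2 adjusted p = 0.00383). BCKDHB, a subunit of the branched-chain ketoacid dehydrogenase, was at 27.3 to 38.7 and 14.1 to 24.8 CPM (-0.86 ± 0.23, adjusted p = 0.125, DESeq2 0.0161). Neither gene overlapped between the groups, where 5.11% of all genes were lower without overlap. Both were named for the smallest p of their list in this same contrast, so this is a description only. Of 6 lysine breakdown genes, around ALDH7A1, 0 passed in edgeR (median -0.13). GCDH, the glutaryl-CoA dehydrogenase, was at 62.1 to 102.7 and 41.6 to 55.5 CPM without overlap (-0.75 ± 0.21, edgeR adjusted p = 0.145, DESeq2 adjusted p = 0.0238), whereas the aminotransferase AADAT gave 0.36 ± 0.20 (adjusted p = 0.561).

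Of 14 genes of retinoid metabolism and its receptors, which act with ALDH1A1, 0 passed in edgeR (median -0.10). DHRS3, which reduces retinal back to retinol, was at 27.3 CPM in 5572A, 10.9 in 5842A, 17.2 in 6762A and 25.9 in C497A. The late-molt libraries held 43.5 CPM in 4448B, 53.1 in 5572B, 90.7 in 9678B and 43.9 in X410B. The groups did not overlap, and 9678B was the highest library for both DHRS3 and ALDH1A1. It differed by 1.51 ± 0.33 on the log2 scale (edgeR adjusted p = 0.066, DESeq2 adjusted p = 7.78e-04). The retinoid X receptor RXRA was at 196 to 291 and 347 to 401 CPM, again without overlap (0.69 ± 0.19, edgeR adjusted p = 0.142, DESeq2 adjusted p = 0.00178).

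Other enzymes that handle aldehydes had 10 genes tested, 0 passing in edgeR and a median of -0.31. GLO1, which removes methylglyoxal, was at 103 to 163 CPM in early molt and 49.8 to 87.1 CPM in late molt (-0.78 ± 0.23, edgeR adjusted p = 0.165, DESeq2 adjusted p = 0.0335). Aldose reductase AKR1B1 was at 40.4 to 122.2 and 28.5 to 47.9 CPM (-1.003 ± 0.33, adjusted p = 0.222), with 6762A within the late-molt range. Over the 89 genes tested in these 8 lists, edgeR called 0, with 12 lower and 4 higher at an unadjusted p under 0.05 (6.22% and 5.20% of all genes). The DESeq2 fit called 6 lower (HIBADH, BCKDHB, GCDH, MTHFS, GLO1 and DBT) and 4 higher (OAZ1, PRODH, DHRS3 and RXRA), against 3.16% lower and 3.35% higher among all genes with an adjusted p. DBT and CPT1B were named after their values were seen.

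**Figure D4:**
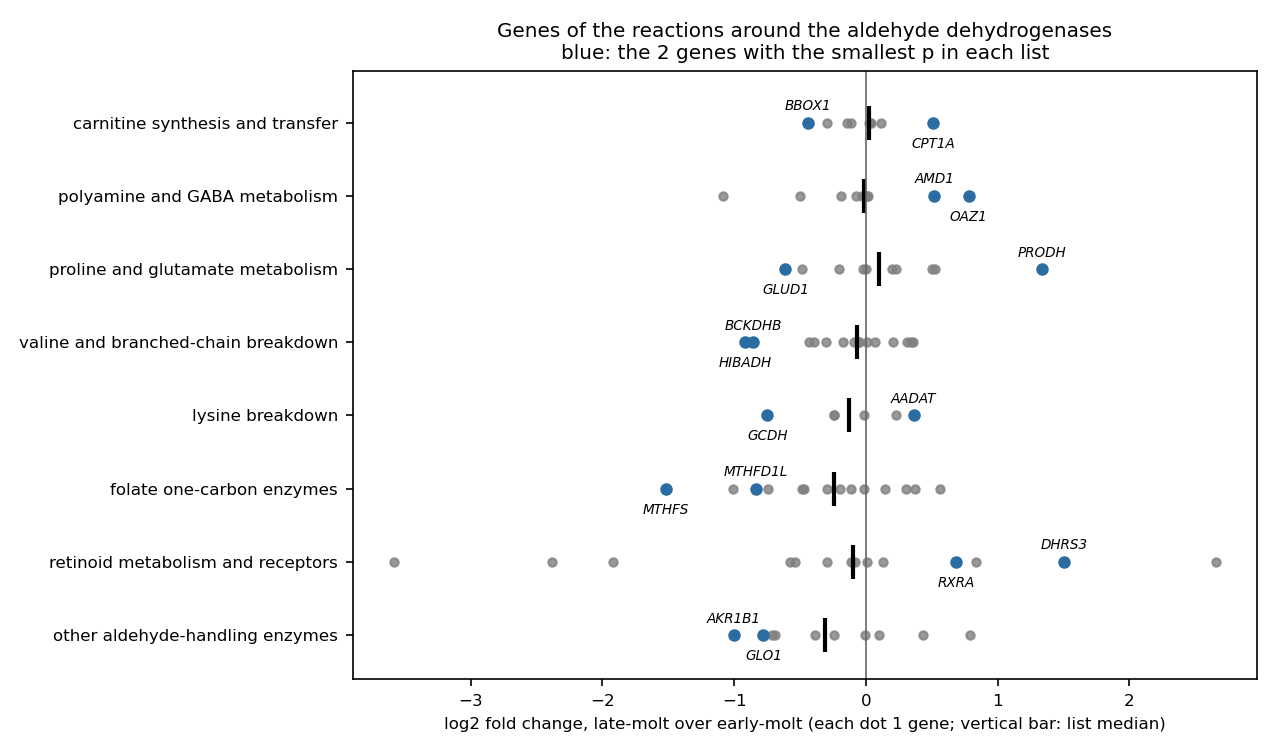
Log2 fold change, late-molt over early-molt, of the tested genes in 8 lists of reactions around the aldehyde dehydrogenases; each dot is 1 gene, the vertical bar is the list median, and blue dots are the 2 genes with the smallest p in each list. List medians run from -0.31 for other aldehyde-handling enzymes to 0.10 for proline and glutamate metabolism, with single genes such as MTHFS (-1.52) and DHRS3 (1.51) away from them. The gray dots farthest out, in the retinoid list, are not among the smallest p of that list.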

How the data were processed

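RNA of 8 muscle libraries was measured as read counts per gene. According to the study's methods and the sample records, the authors enriched poly-A RNA, converted base calls with bcl2fastq 2.20, mapped the reads on the genome of the Hawaiian monk seal using STAR, and deposited raw counts per gene; their own test used DESeq2 1.18.1 in R 3.4.3. The 8 libraries are a selection: the study sequenced more and retained these on unique read number, RNA quality having limited others. The strand setting of the counting is not given in the sources used here, so reads from opposite strands of one locus may be mixed, and reads of one seal species were counted on genes of another. The labels and the methods name different library kits.

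Of 24349 entries, 11 name no gene (0.0173 to 0.0259% of counts) and were left out. Genes kept by filterByExpr (minimum count 10, minimum total 15) numbered 14312. Groups were compared with edgeR 4.0.16 (R 4.3.3; TMM factors, quasi-likelihood F test), with Benjamini-Hochberg adjustment over all genes tested and a threshold of 0.05; alternatives were DESeq2 1.42.0, limma-voom 3.58.1, other scaling factors, no filter, library sizes without the 20 most abundant genes, and fits with libraries left out. The SE is the log2 fold change divided by the root of F. Log2 CPM used a prior count of 2. No animal term was fitted. The test sets the group difference against the spread between libraries, and it treats the 2 libraries of seal 5572 as independent. Counts of all 28 library pairs differed beyond sampling noise (chi-square divided by its degrees of freedom at least 84.2). Scripts were tested on simulated data.

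The members and gene lists were chosen with earlier results of these data known. Named genes were all members, the other family genes, in each list those called and the 2 with the smallest p, and the 5 genes most like ALDH9A1 by Pearson r, with and without group means. No lengths of transcripts and no sequences were used here, so levels are not compared between genes and no positions are given.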

Additional observations from a re-analysis of the deposited data

Results flagged for a closer look

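Among 62 groups of 4 libraries (the members, the other tested family genes and the named pathway genes, each in both groups), 6 held 1 library whose gap to its nearest neighbour exceeded Dixon's 95% critical value as a share of the group's range. Chance gives about 1 in 20. Among the members this was ALDH7A1, at 43.1 CPM in late-molt 9678B against 61.9 to 65.0 in the other 3. The others were OAZ1 (416 CPM in early-molt 6762A, others 528 to 551), AMD1 (41.8 CPM in early-molt C497A, others 17.6 to 21.3), PRODH (28.5 CPM in early-molt 5572A, others 14.4 to 16.2), MTHFD1L (21.5 CPM in late-molt 4448B, others 6.55 to 8.94) and GLO1 (163 CPM in early-molt 5842A, others 103 to 113). These were in 6 different libraries.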

How the results depend on the processing

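No paired analysis was possible because only seal 5572 has a library in both groups. With ALDH9A1, which chose the family, included, the number of members called lower was 1 in edgeR, 3 with DESeq2, 2 with limma-voom and 2 with no filter on low counts (ALDH9A1 and ALDH1L1 in both). It was 0 without both libraries of seal 5572, 0 without 5842A and 9678B, and 0 to 1 when 1 library was left out. The call without C497A was ALDH1L1 and that without 6762A was ALDH9A1. Over all genes, calls lower were 19 of 14312 in edgeR, 316 of 9991 with DESeq2 and 39 of 14312 with limma-voom. They were 97 of 19401 with no filter, 2 of 14155 without seal 5572 and 0 of 14639 without 5842A and 9678B. Leaving out 1 library gave 2 (without 5572A) to 21 (without C497A) calls lower over all genes. With so few calls, the member counts of 0 in the fits with libraries left out say little about the members. The pathway genes called were 0 in edgeR, and 6 lower and 4 higher with DESeq2 (316 lower and 335 higher of 9991 genes). With no filter 1 was called higher (DHRS3), against 128 higher of 19401 genes. Leaving out 5842A and 9678B, which mapped least uniquely within their groups per the study's summary, was chosen after seeing the data; the log2 fold change was then -1.22 for ALDH9A1, -1.03 for ALDH1L1 and -0.56 for ALDH4A1. Over 17 fits the sign of 8 members did not change. That of ALDH3A2 turned positive with no filter (0.0040), without 5842A and 9678B (0.14) and in 4 of 8 fits without 1 library (-0.12 to 0.12), and that of ALDH5A1 without C497A (0.046, range over left-out libraries -0.11 to 0.046). The cause was not tested. With 4 libraries per group, a member with a wide spread such as ALDH1A1 has an interval of -0.20 to 1.79, within which a difference of 1 log2 unit cannot be told from none.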
